A study of Mus musculus with 9 samples.

Results

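The transcription factors that build and maintain the pancreas were read out in 9 mouse pancreas tumours. The 9 genes were Pdx1, Ptf1a, Sox9, Gata4, Gata6, Foxa2, Onecut1, Nr5a2 and Hnf4a, chosen by symbol from the array's annotation, out of 19057 genes with a named probe. Probes paired with 8 of them were on the array, 14 probes in all, and no probe was paired with Onecut1 in the annotation used here. A probe was kept for testing when its detection p-value, which ranks its signal against the array's negative controls, was under 0.05 on at least 3 of the 9 arrays. This left 7 of the factors among 11537 genes tested; Ptf1a was not kept.

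Each tumour came from its own mouse and was measured on its own Illumina bead array. The labels put 3 tumours in a KPC group, 3 in KPC;TwistcKO and 3 in KPC;SnailcKO (shortened here to Twist cKO and Snail cKO), whereas the design text counts 2 mice per group. KPC mice are a genetic model in which pancreas tumours arise spontaneously, and all 3 groups carry the KPC genotype. The conditional knockouts remove Twist or Snail, transcription factors that drive epithelial-mesenchymal transition, from the pancreas. The promoter that drives the Cre recombinase, the age of the mice and their strain are not given in the sources used here. RNA was taken from whole tumours, so that a lower signal from fewer cells of a type and from less RNA per cell cannot be told apart.

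In the embryo, Pdx1, Ptf1a, Sox9, Foxa2, Onecut1, Hnf4a, Gata4 and Gata6 act together in the pancreatic progenitors, and they activate one another in a densely connected network. As the organ matures the factors part: Ptf1a and Nr5a2 drive digestive enzyme genes in acinar cells, Sox9, Hnf4a and Onecut1 mark duct cells to different degrees, and Pdx1 and Foxa2 are prominent in islet beta cells. In pancreatic cancer, Sox9 and Pdx1 are regained or kept when acinar cells take on a duct-like state, and Gata6 and Hnf4a are associated in human tumours with the classical, more differentiated subtype.

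Promoter sequences place short motifs of these factor families before some of the factors' own genes. Shown are 5 windows of 250 bases before a transcription start, chosen for genes whose levels the results turn on. They were taken from RefSeq on the build GRCm38.p6, which held windows for 6 of the 9 factors and none for Sox9, Gata4 or Gata6. Capitals mark matches, on either strand, to 7 short motifs bound by these families: TAATNA for the Pdx1 homeodomain, CAAAGNNCA for Hnf4a, TGTTTNC for the Foxa forkhead, GATAA for Gata factors, ATNGAT for Onecut, AAGGTCA for Nr5a2 and ACAANG for Sox factors. The windows are read 5′ to 3′ on the gene's own strand. Those of Pdx1 (chr5:147269847-147270096, plus strand), Foxa2 (chr2:148046970-148047219, minus strand) and Nr5a2 (chr1:136960449-136960698, minus strand) come first, followed by the upstream (chr2:163506607-163506856) and the downstream (chr2:163546905-163547154) start of Hnf4a, both on the plus strand:
Pdx1: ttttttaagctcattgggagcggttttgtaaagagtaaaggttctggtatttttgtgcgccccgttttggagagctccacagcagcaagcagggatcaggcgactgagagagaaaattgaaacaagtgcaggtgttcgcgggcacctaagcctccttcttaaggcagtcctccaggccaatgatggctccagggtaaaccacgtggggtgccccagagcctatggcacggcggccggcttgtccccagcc
Foxa2: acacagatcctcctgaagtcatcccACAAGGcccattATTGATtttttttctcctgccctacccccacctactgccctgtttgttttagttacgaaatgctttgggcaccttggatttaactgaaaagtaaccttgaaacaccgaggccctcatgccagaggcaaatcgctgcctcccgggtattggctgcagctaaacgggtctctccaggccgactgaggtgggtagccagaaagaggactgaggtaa
Nr5a2: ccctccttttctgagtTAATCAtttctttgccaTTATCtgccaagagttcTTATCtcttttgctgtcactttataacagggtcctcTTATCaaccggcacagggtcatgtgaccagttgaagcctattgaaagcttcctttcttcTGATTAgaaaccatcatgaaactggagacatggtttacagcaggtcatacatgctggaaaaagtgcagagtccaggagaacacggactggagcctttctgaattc
Hnf4a upstream start: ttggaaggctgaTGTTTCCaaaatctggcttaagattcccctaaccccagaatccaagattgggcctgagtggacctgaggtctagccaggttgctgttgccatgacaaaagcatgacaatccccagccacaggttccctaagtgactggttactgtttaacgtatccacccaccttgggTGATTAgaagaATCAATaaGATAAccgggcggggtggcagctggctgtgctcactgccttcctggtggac
Hnf4a downstream start: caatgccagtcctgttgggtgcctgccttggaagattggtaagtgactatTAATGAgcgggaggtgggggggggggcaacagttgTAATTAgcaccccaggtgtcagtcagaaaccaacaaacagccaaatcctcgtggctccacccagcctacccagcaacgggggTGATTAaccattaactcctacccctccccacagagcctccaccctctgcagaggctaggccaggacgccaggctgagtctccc

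The upstream Hnf4a window held a Foxa match 238 bases before the start, a Pdx1 match at 70, an Onecut match at 59 and a Gata match at 51. The downstream Hnf4a window held 3 Pdx1 matches, at 200, 165 and 83 bases. The Nr5a2 window shown held 2 Pdx1 matches, at 234 and 105 bases, and 3 Gata matches, at 217, 200 and 164. The Foxa2 window shown held a Sox match at 225 bases and an Onecut match at 213. RefSeq gave 2 windows for Nr5a2 and 3 for Foxa2, and the most upstream one of each is shown. The other Nr5a2 window held no Pdx1 or Gata match and 2 Sox matches, and of the other Foxa2 windows one held a Gata and a Sox match and the other none of the 7 motifs. None of the 7 motifs occurred in the Pdx1 window. It held 3 copies of the E-box CANNTG, which basic helix-loop-helix factors such as Ptf1a bind and which is not capitalised. The windows of Ptf1a and Onecut1, not shown, also held none of the 7 motifs. E-boxes numbered 2 in the Nr5a2 window shown, 1 in the upstream and 2 in the downstream Hnf4a window, and 2 in that of Onecut1. The Foxa2 window shown and that of Ptf1a held no E-box. These matches were of common letters. Over all 32817 windows of the same length, 24.4% held the Pdx1 motif, 17.8% the Foxa motif, 22.6% the Gata motif, 18.9% the Onecut motif, 36.3% the Sox motif and 66.2% an E-box. The Hnf4a and Nr5a2 motifs were in 5.49% and 4.08% of windows and in none of the 5 shown. No match overlapped another. A match describes the letters and does not show binding.

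The arrays detected between 16707 and 19606 of 45281 probes, the lowest number in Snail cKO replicate 2. With 3 arrays a group, precision is limited in each comparison. By the median raw bead signal the arrays split into 2 sets, which no label names: 99.1 to 107.2 for the third replicate of each knockout and all 3 KPC tumours, against 115.4 to 125.4 for the other 4 tumours. Twist1 was above background on 1 of 3 arrays labelled Twist cKO and lay at 4.60 to 5.23, against 7.25 to 9.19 in KPC tumours. It was also not above background in Snail cKO replicate 2, at 4.65, with 8.66 and 7.56 in replicates 1 and 3. Snai1 was above background on all 9 arrays, at 6.08 to 7.79 in tumours labelled Snail cKO and 6.89 to 7.91 in KPC tumours; where its probe lies relative to the deletion was not tested. The epithelial genes Krt8 and Cdh1 were detected in every tumour, but Krt8 ranged from 5.05 to 13.97. KPC replicate 1 and Twist cKO replicate 2 stood apart with the lowest epithelial levels. Many of the group differences, list counts and correlations that changed without them are given both ways below. For the lists and spreads this choice was made after seeing the data. All levels are normalised log2 intensities, in which 1 unit is a doubling, and they are compared between tumours for the same probe, never between genes.

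Pdx1, Hnf4a and Foxa2 formed a group with the same pattern over the tumours. Pdx1, the homeodomain factor without which no pancreas forms, was at 4.48, 7.83 and 7.98 in KPC replicates 1, 2 and 3. Its level was 7.42, 4.59 and 7.86 in the Twist cKO tumours and 7.31, 8.33 and 8.26 in the Snail cKO tumours. It was not above background in KPC replicate 1 and Twist cKO replicate 2, and the other 7 tumours lay between 7.31 and 8.33. The spread therefore lay within the KPC and Twist cKO groups, and all 3 groups overlapped.

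Hnf4a, a nuclear receptor of liver, gut and pancreas epithelium, was detected in all 9 tumours. It was at 5.57, 9.24 and 10.19 in KPC, 8.59, 5.14 and 10.03 in Twist cKO, and 6.46, 10.69 and 10.14 in Snail cKO. The same 2 tumours were lowest, and Snail cKO replicate 1 was the next lowest. The highest and lowest tumours differed 46.8-fold, and the groups overlapped.

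Foxa2, a forkhead pioneer factor that opens chromatin at endoderm genes, was low in the same tumours. It was at 4.45, 6.43 and 7.88 in KPC, 6.72, 4.59 and 6.71 in Twist cKO, and 5.14, 8.65 and 6.81 in Snail cKO. It was not above background in KPC replicate 1 and Twist cKO replicate 2, next lowest in Snail cKO replicate 1 and highest in Snail cKO replicate 2, an 18.4-fold range. The other Foxa2 probe was not above background on any array.

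**Figure D1:**
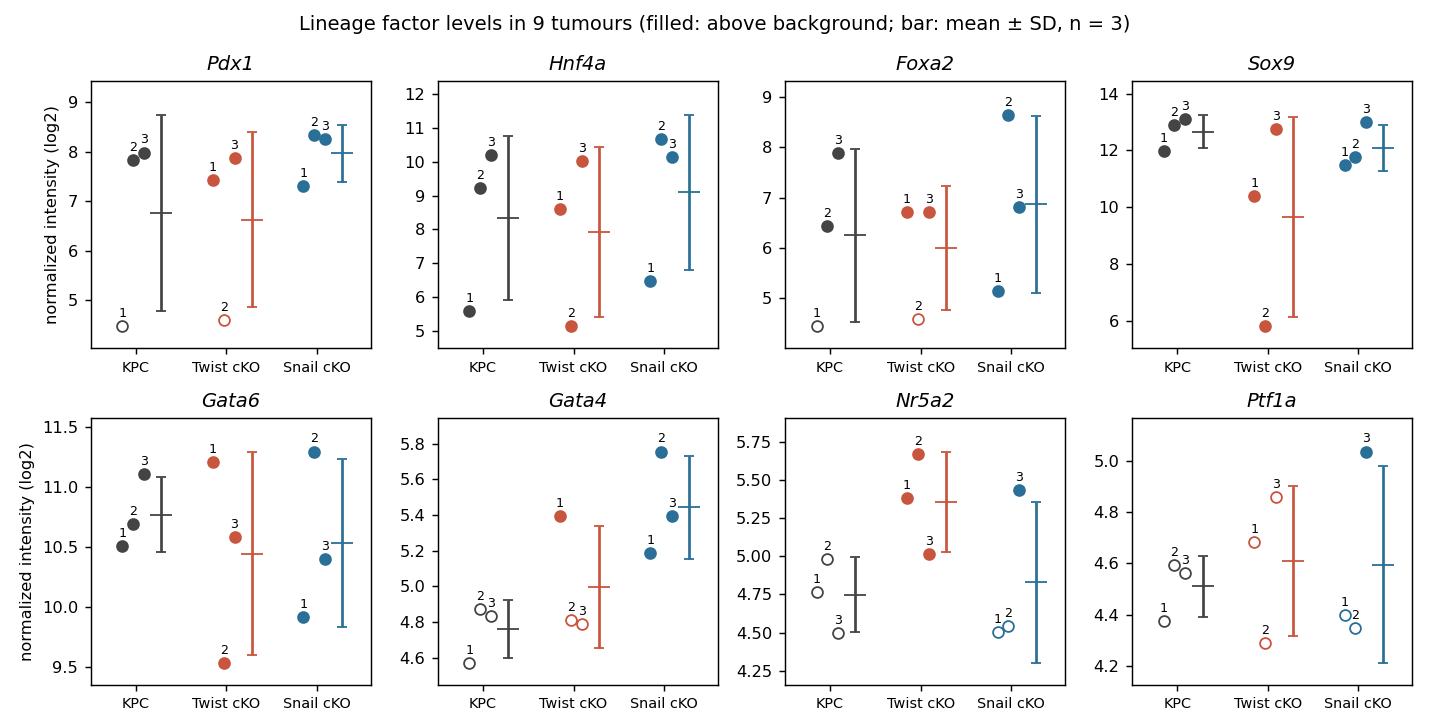
Normalised log2 intensity of each factor in each of the 9 tumours, by group; filled points were above background and open points were not, numbers are replicates, and bars give the group mean ± SD (n = 3). The vertical scales differ between panels. Pdx1, Hnf4a and Foxa2 were lowest in KPC replicate 1 and Twist cKO replicate 2, whereas Sox9 was low in Twist cKO replicate 2 but not in KPC replicate 1.

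Sox9, the factor of duct cells and of progenitors, did not share the low value of KPC replicate 1. It was at 11.99, 12.91 and 13.09 in KPC, 10.38, 5.81 and 12.74 in Twist cKO, and 11.47, 11.76 and 12.99 in Snail cKO, above background throughout. Twist cKO replicate 2 was the lowest by a wide margin, and the highest and lowest tumours differed 155-fold. The second Sox9 probe gave 8.18, 8.87 and 9.07 in KPC, 7.01, 4.61 and 8.82 in Twist cKO, and 8.42, 8.65 and 8.97 in Snail cKO, and in Twist cKO replicate 2 it was not above background. Both probes thus placed the same tumour lowest and Twist cKO replicate 1 next (Pearson r = 0.98 over the 9 tumours); by the second probe KPC replicate 1 came after these, with the group ranges still overlapping.

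Gata6, a zinc-finger factor of endoderm and of well differentiated pancreatic cancer, was detected in all 9 tumours. It varied the least of the 5 bright factors. It was at 10.50, 10.69 and 11.11 in KPC, 11.20, 9.53 and 10.58 in Twist cKO, and 9.91, 11.29 and 10.40 in Snail cKO. Twist cKO replicate 2 was again lowest and Snail cKO replicate 2 highest, a 3.38-fold range, with KPC replicate 1 in the middle of the order. A second Gata6 probe, above background in 3 tumours, followed the first less closely (Pearson r = 0.36).

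The remaining factors lay at or near background. Gata4, which acts beside Gata6 in progenitors and in acinar cells, was at 4.57, 4.87 and 4.83 in KPC, 5.39, 4.81 and 4.79 in Twist cKO, and 5.18, 5.76 and 5.39 in Snail cKO. It was above background in all 3 Snail cKO tumours, in Twist cKO replicate 1 and in no KPC tumour. Nr5a2, a nuclear receptor that sustains acinar identity, was at 4.77, 4.98 and 4.50 in KPC, 5.38, 5.67 and 5.02 in Twist cKO, and 4.51, 4.55 and 5.44 in Snail cKO. It was above background in all 3 Twist cKO tumours, in Snail cKO replicate 3 and in no KPC tumour, and its 2 other probes were not above background anywhere. Ptf1a, the helix-loop-helix factor of acinar cells, lay between 4.29 and 4.86 in 8 tumours, none above background, and at 5.04 in Snail cKO replicate 3. Its other probe was not above background on any array.

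In Snail cKO replicate 3, 8 of the factors were detected, Ptf1a among them only narrowly and by 1 probe. This tumour also had the highest levels of acinar digestive enzymes. All 24 tested enzyme genes were above background there, and their median, relative to each gene's mean over the tumours, was 3.19. KPC replicate 2, Twist cKO replicate 1 and Twist cKO replicate 3 followed with 20, 22 and 21 enzyme genes detected and medians of 0.55, 1.39 and 0.90. The enzyme median was between -1.46 and -0.31 in the other 5 tumours. Over the 9 tumours Nr5a2 and the enzyme median had a Pearson r of 0.52, and 0.93 over the 7 tumours other than the 2 that stood apart. Leaving out instead the 2 tumours whose enzyme median lay farthest from the middle of the 9 gave 0.16. Twist cKO replicate 2, among those that stood apart, had the highest Nr5a2, 5.67, with a low enzyme median, -1.16. The value of r thus depended on which tumours were left out. These values describe tumours that share groups, array sets and tissue makeup. The share of acinar tissue in each tumour was not measured, and its part in the Ptf1a and Nr5a2 signal was not tested. For Gata4, which is also a stomach factor, the median of 10 stomach and intestine markers was 1.76 in Snail cKO replicate 3, 0.21 in replicate 2 and -0.60 in replicate 1, against -1.13, -0.21 and 0.81 in KPC. The KPC and Snail cKO ranges of this median overlapped, and the part of such tissue in the Gata4 signal was not tested.

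**Figure D2:**
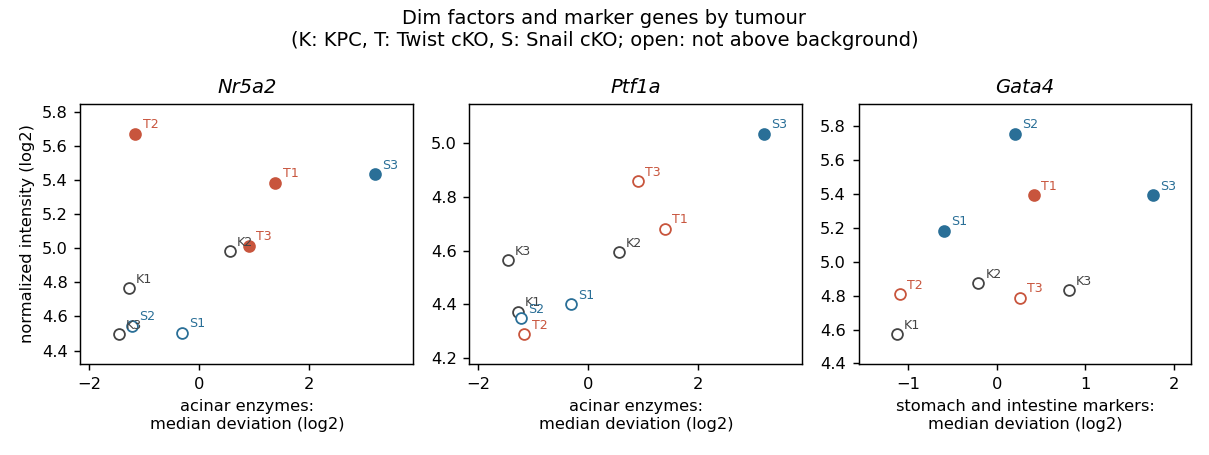
Normalised log2 intensity of Nr5a2 and Ptf1a against the median level of 24 acinar enzyme genes, and of Gata4 against that of 10 stomach and intestine markers (log2, relative to each gene's mean over the tumours), 1 point per tumour, open where the factor was not above background. Snail cKO replicate 3 had the highest enzyme median, 3.19, and was the only tumour with Ptf1a above background, narrowly and by 1 probe (detection p-value 0.030).

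The spread of the factors was large beside that of other genes. The SD over the 9 tumours was 2.30 for Sox9, 2.16 for Hnf4a, 1.50 for Pdx1 and 1.43 for Foxa2, against a median of 0.487 over all genes tested. For Sox9, 99.0% of genes had a smaller SD, for Hnf4a 98.7%, for Pdx1 94.5% and for Foxa2 93.7%. Gata6, with an SD of 0.59, was nearer the middle (61.9% of genes smaller), and Nr5a2 and Gata4 were below it, at 42.5% and 32.5%. The 3 groups accounted for 5.74% of the variance of Hnf4a, 7.19% for Foxa2, 6.15% for Gata6 and 18.1% for Pdx1, where the median gene had 19.3%. For Sox9, Nr5a2 and Gata4 the share was 36.4%, 42.5% and 61.4%. Nr5a2 and Gata4 lay near background. They passed the detection filter only through the Twist cKO and the Snail cKO tumours, respectively, so their shares are not independent of those groups. Without the 2 tumours standing apart the SD of Pdx1 was 0.39, with 42.4% of genes smaller, so that its spread rested on them. It was 1.44 for Hnf4a, 1.11 for Foxa2 and 1.02 for Sox9, with 97.6%, 94.0% and 92.3% of genes smaller. The between-group shares of Nr5a2 and Gata4 were then 24.9% and 55.5%, where the median gene had 30.3%.

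Among the factors, Pdx1 and Hnf4a varied together (Pearson r = 0.91, Spearman rho = 0.97), as did Foxa2 and Hnf4a (0.93 and 0.93) and Pdx1 and Foxa2 (0.83 and 0.93). Leaving out the 2 tumours standing apart, the Pearson r of these pairs was 0.89, 0.86 and 0.76, so the pairs also followed each other over the other 7 tumours. Gata6 was nearer to Foxa2 (0.80) than to Hnf4a (0.73), and Sox9 was at 0.65 with Pdx1 and 0.66 with Hnf4a. Without the same 2 tumours these were 0.84, 0.63, 0.59 and 0.52. Nr5a2 had values from -0.57 to -0.03 with the other tested factors over 9 tumours and from -0.19 to 0.13 without the same 2. These correlations describe 9 tumours that share groups, array sets and tissue makeup.

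Epithelial content moved with the same factors. The median of 22 epithelial genes, relative to their means, was -2.35 in KPC replicate 1 and -2.69 in Twist cKO replicate 2 and lay between -0.22 and 1.47 in the other 7 tumours. Its Pearson r over the 9 tumours was 0.93 with Pdx1, 0.85 with Hnf4a, 0.78 with Foxa2, 0.68 with Gata6 and 0.63 with Sox9. Without those 2 tumours the values were 0.20, 0.44, 0.37, 0.59 and -0.04, so that for Pdx1, Hnf4a, Foxa2 and Sox9 the relation rested largely on them. Other tissue stood out in the same tumours. The median of 14 macrophage markers was highest in KPC replicate 1, at 1.91, and next in Twist cKO replicate 2, at 0.85. Markers of lymphocytes and of adipocytes were highest in Twist cKO replicate 2, with medians of 4.92 and 3.91 over 5 genes each. The part of these tissues in the factor levels was not tested. Of all genes tested, 8.64% had their 2 lowest tumours in KPC replicate 1 and Twist cKO replicate 2, and 3 of the 7 tested factors did.

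**Figure D3:**
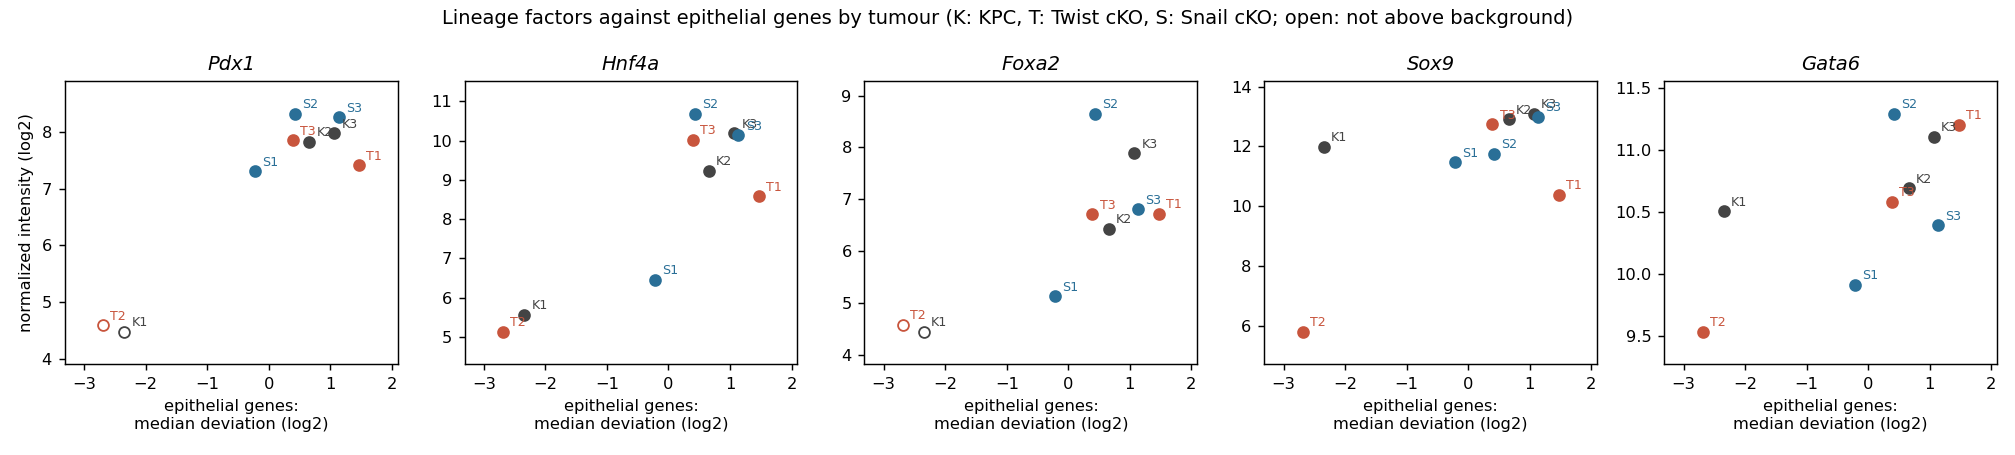
Normalised log2 intensity of 5 factors (vertical axes) against the median level of 22 epithelial genes relative to their means over the tumours (horizontal axis, log2), 1 point per tumour, open where not above background. KPC replicate 1 and Twist cKO replicate 2 sit far to the left; at that end Sox9 and Gata6 stayed bright in KPC replicate 1, whereas Pdx1 and Foxa2 were not above background in either tumour.

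In KPC replicate 1, by their brightest probes, 2 of the 5 factors were not low. Its Sox9 (11.99) lay above 4 of the other 8 tumours and its Gata6 (10.50) above 3. Hnf4a was above background but next to its lowest, at 5.57, and Pdx1 and Foxa2 were not above background. The second Sox9 probe, at 8.18, lay above only Twist cKO replicates 1 and 2, and the second Gata6 probe was not above background there. In Twist cKO replicate 2 all 5 were at or next to their lowest. Sox9 was at 5.81 and Gata6 at 9.53 there, each the lowest of the 9.

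Comparing Twist cKO with KPC tumours asks whether the factors' RNA changed when Twist was removed. None of the 7 tested factors passed limma with Benjamini-Hochberg adjustment over all 11537 genes at 0.05, and 0% of all genes did. The mean was higher in Twist cKO for 2 factors and lower for 5, with a median log2 difference of -0.25, against -0.066 over all genes. At an unadjusted p under 0.05 there were 0 of 7 factors and 3.55% of all genes. Sox9 had the largest difference: its mean was 12.66 ± 0.59 (SD, n = 3) in KPC and 9.64 ± 3.52 (SD, n = 3) in Twist cKO, a log2 difference of -3.02 (SE 1.46, 95% interval -6.34 to 0.30, limma adjusted p = 0.978). The second Sox9 probe gave -1.89 (SE 0.87). This difference depended on 1 tumour, being -1.10 without Twist cKO replicate 2. Within the first array set, whose only Twist cKO tumour was replicate 3, it was 0.08.

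Nr5a2 was the only tested factor whose KPC and Twist cKO tumours did not overlap, as was the case for 8.06% of all genes in either direction and 2.99% with Twist cKO higher. Nr5a2 passed the detection filter only through the Twist cKO tumours, where it was high, so its tests are not independent of that group. Its means were 4.75 ± 0.24 (SD, n = 3) in KPC and 5.36 ± 0.33 (SD, n = 3) in Twist cKO, a difference of 0.61 (SE 0.33, 95% interval -0.15 to 1.37, limma adjusted p = 0.978). Since no KPC tumour was above background, the KPC mean was replaced by a bound, taking in each array the higher of the probe's own level and the lowest detected signal. By that bound the Nr5a2 means of these tumours differed at least 1.30-fold. The bound does not allow for sampling error, and the 95% interval included no change. The exact permutation test gave p = 0.1 (two-sided), the smallest that 3 against 3 tumours allow. The difference was 0.27 within the first array set, whose only Twist cKO tumour was replicate 3. The other Nr5a2 probes, not above background anywhere, differed by 0.20 and -0.14. The acinar enzyme median was -1.28, 0.55 and -1.46 in KPC and 1.39, -1.16 and 0.90 in Twist cKO, and its part was not tested.

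The other factors differed by less than their spread. Pdx1 was at 6.76 ± 1.98 in KPC and 6.62 ± 1.77 in Twist cKO (SD, n = 3 each), a difference of -0.14 with a 95% interval from -2.62 to 2.35. Hnf4a was at 8.33 ± 2.44 and 7.92 ± 2.51 (SD, n = 3 each), and its interval ran from -4.21 to 3.38. For Foxa2, at 6.26 ± 1.72 and 6.01 ± 1.23 (SD, n = 3 each), it ran from -2.76 to 2.27. Each group held 1 tumour standing apart. Leaving out KPC replicate 1 moved the differences of Pdx1, Hnf4a and Foxa2 to -1.28, -1.79 and -1.15. Leaving out Twist cKO replicate 2 moved those of Pdx1 and Hnf4a to 0.88 and 0.98, and leaving out KPC replicate 3 moved that of Foxa2 to 0.57. Gata6 had the narrowest interval of the bright factors, -1.45 to 0.80 around -0.33, and Gata4 differed by 0.24 (SE 0.28). Changes within these intervals were not excluded with 3 tumours per group.

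The Snail cKO tumours were set against KPC tumours in the same way. Again 0 of 7 factors and 0% of all genes passed at an adjusted p of 0.05, while 5 factors had a higher mean and 2 a lower one, with a median difference of 0.61 against -0.035 over all genes. Without the 2 tumours standing apart it was 3 higher and 4 lower, with a median of -0.29. Gata4 differed with an unadjusted limma p of 0.037, the only one of 7 factors under 0.05, as 2.7% of all genes were. It passed the detection filter only through the Snail cKO tumours, where it was high, so its tests are not independent of that group. It was at 4.76 ± 0.16 (SD, n = 3) in KPC and 5.44 ± 0.29 (SD, n = 3) in Snail cKO, a log2 difference of 0.68 (SE 0.28, 95% interval 0.05 to 1.32). The limma adjusted p was 1.000. The groups did not overlap, as for 8.69% of all genes in either direction and 2.84% with Snail cKO higher, and the exact permutation p was 0.1 (two-sided). With no KPC tumour above background, the Gata4 means of these tumours differed at least 1.38-fold by the same bound, which does not allow for sampling error. The Gata4 difference was 0.63 within the first array set, whose only Snail cKO tumour was replicate 3. It was 0.55 in a fit that took the array set as a block, with no KPC tumour in the second set.

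Pdx1 was at 7.96 ± 0.57 (SD, n = 3) in Snail cKO, with all 3 tumours above background, and its difference from KPC was 1.20 (SE 1.09, 95% interval -1.29 to 3.69, limma adjusted p = 1.000). Without KPC replicate 1 it was 0.06. Hnf4a was at 9.09 ± 2.30 and Foxa2 at 6.87 ± 1.76 in Snail cKO (SD, n = 3 each), with differences of 0.76 (SE 1.66) and 0.61 (SE 1.10). Without KPC replicate 1 these turned to -0.62 and -0.29. Sox9 was at 12.07 ± 0.81 (SD, n = 3), a difference of -0.59 (SE 1.46), which was 1.42 in the fit blocked on array set. Gata6 was at 10.53 ± 0.70 (SD, n = 3), a difference of -0.23 (SE 0.49), and Nr5a2 differed by 0.08 (SE 0.33).

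**Figure D4:**
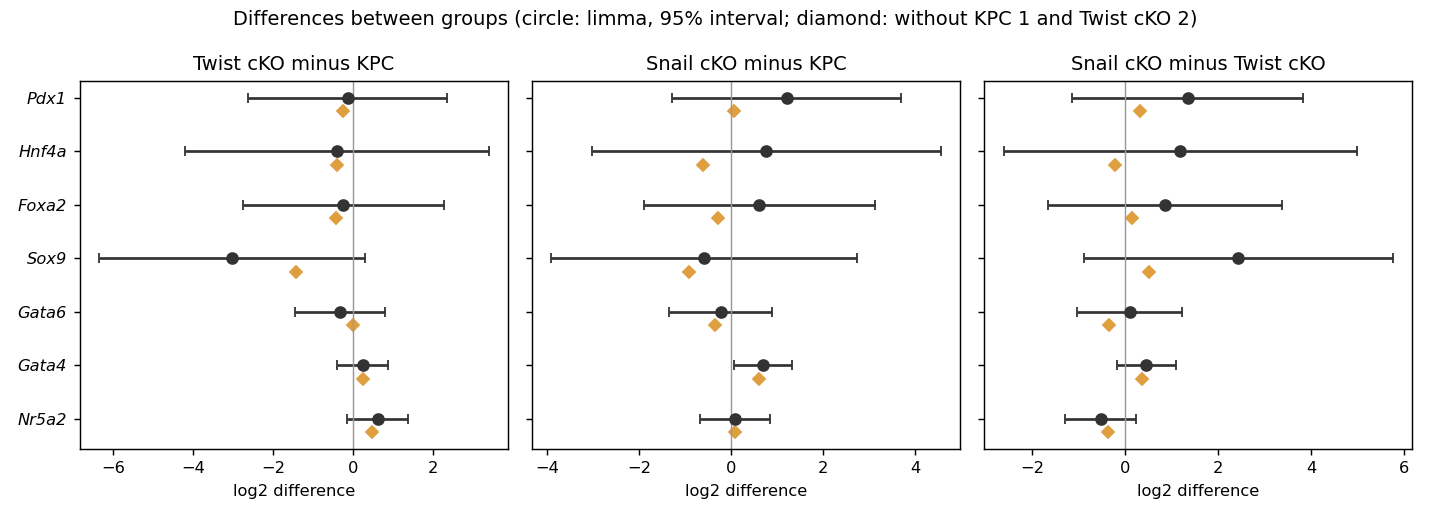
Log2 difference of each tested factor in 3 comparisons, with circles and bars for the limma fit on 9 tumours and its 95% interval, diamonds for the difference without KPC replicate 1 and Twist cKO replicate 2, and a grey line at no difference. Every interval crosses 0 except that of Gata4 in Snail cKO against KPC, 0.05 to 1.32, and none passed after adjustment over all genes. Gata4 passed the detection filter only through the Snail cKO tumours and was above background in no KPC tumour.

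The Snail cKO and Twist cKO tumours share the KPC tumours as controls, and their direct comparison shows where the knockouts differ from each other. None of the 7 factors and 0% of all genes passed adjustment, and none of the factors had groups that did not overlap, against 8.22% of all genes. At an unadjusted limma p under 0.05 there were 0 of 7 factors and 3.78% of all genes. The mean was higher in Snail cKO for 6 factors, with a median difference of 0.86, and lower for Nr5a2, at -0.53 (SE 0.33). Sox9 differed by 2.43 (SE 1.46, 95% interval -0.90 to 5.75, limma adjusted p = 0.986), and its second probe by 1.87 (SE 0.87). Without Twist cKO replicate 2 the Sox9 difference was 0.51 and that of Pdx1, 1.34 over all tumours, was 0.32. Hnf4a differed by 1.18, which turned to -0.21 without that tumour, Foxa2 by 0.86, which was -0.032 without Snail cKO replicate 2, Gata4 by 0.45 and Gata6 by 0.09. Without the 2 tumours standing apart 4 factors were higher and 3 lower, with a median of 0.15. With both knockouts together against KPC, 0 of 7 factors and 0% of genes passed, 0 of 7 and 2.88% were under an unadjusted 0.05, and 0 of 7 and 1.93% had groups that did not overlap. Gata4 had a difference of 0.46 (SE 0.24, exact permutation p = 0.107, two-sided, where 6 against 3 tumours could reach 0.0119).

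Other transcription factors of pancreatic progenitors and ducts were, in the median, low in the same tumours as Pdx1 and Hnf4a. The median of 13 tested genes, of 17 listed, was -1.45 in KPC replicate 1 and -1.75 in Twist cKO replicate 2 and lay between -0.65 and 0.96 elsewhere, and its Pearson r was 0.93 with Foxa2, 0.93 with Hnf4a, 0.91 with Pdx1 and 0.84 with Gata6. Without those 2 tumours r was 0.89, 0.76, 0.55 and 0.95. Single members departed from this: Prox1, a homeodomain factor of early pancreas, was highest in Twist cKO replicate 2, at 7.40. With Onecut1 lacking a probe, its relatives were the only Onecut readout. Onecut2 was at 7.17, 11.75 and 12.44 in KPC, 12.14, 4.52 and 12.23 in Twist cKO, and 9.70, 12.01 and 12.07 in Snail cKO, not above background in Twist cKO replicate 2. The Foxa2 relative Foxa3 was at 6.16, 10.65 and 11.45 in KPC, 8.70, 5.03 and 9.64 in Twist cKO, and 7.98, 10.68 and 10.95 in Snail cKO. Both were lowest in the 2 tumours where Pdx1 was lowest.

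Klf5, a zinc-finger factor of proliferating epithelium, was at 9.76, 11.63 and 12.94 in KPC, 11.92, 5.28 and 11.61 in Twist cKO, and 11.29, 12.31 and 12.63 in Snail cKO, so that it shared the very low value of Sox9 in Twist cKO replicate 2. Hes1, the Notch target that keeps progenitors undifferentiated, ranged from 7.02 to 10.09 with the same 2 tumours lowest. Of the 13 genes none passed adjustment in any comparison. The mean was higher for 4 and lower for 9 in Twist cKO against KPC, with a median of -0.52, and higher for 12 and lower for 1 in Snail cKO against KPC, with a median of 0.55. Without the 2 tumours standing apart these became 5 and 8 (median -0.06) and 7 and 6 (median 0.06). The list's level by tumour, -1.45, 0.15 and 0.60 in KPC and -0.65, 0.96 and 0.29 in Snail cKO, overlapped between the groups.

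Acinar factors other than the 9 and binding partners of the network were also read. Of 4 acinar factors tested, including Xbp1, the regulator of secretory capacity, and Bhlha15, which matures the secretory apparatus, none passed, and the median difference was -0.11 in Twist cKO and 0.17 in Snail cKO against KPC, and 0.44 between Snail cKO and Twist cKO. Of 12 partners and cofactors tested none passed, with medians of -0.05, -0.08 and 0.09. Meis1, a homeodomain partner of Pbx and Hox proteins, was at 11.38, 10.44 and 10.90 in Snail cKO and 9.00, 9.03 and 10.30 in Twist cKO, a difference of 1.46 (SE 0.58, limma adjusted p = 0.986). These groups did not overlap, as was the case for 2 of the 12 partners and 8.22% of all genes. Zfpm2, the Gata cofactor FOG2, was at 9.68, 8.40 and 8.76 in KPC and 8.72, 6.41 and 7.30 in Snail cKO, a difference of -1.47 (SE 0.59, limma adjusted p = 1.000).

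Genes that these factors are known to serve gave the following counts, none with a gene past adjustment. Of 24 acinar enzymes, whose genes Ptf1a and Nr5a2 activate, the mean was higher for 22 in Twist cKO and 23 in Snail cKO against KPC, with medians of 1.20 and 1.47. Without the 2 tumours standing apart it was higher for 23 and 21, with medians of 1.46 and 1.01. Snail cKO replicate 3 and Twist cKO replicates 1 and 3 carried high levels, while the other tumours of these groups lay at -1.22 to -0.31, within the KPC range of -1.46 to 0.55. Of 14 duct markers, 10 were lower in Twist cKO and 10 higher in Snail cKO, with medians of -0.25 and 0.68, and of 12 islet genes 8 were lower in Twist cKO and 6 higher in Snail cKO. Without the 2 tumours standing apart, 8 duct markers were lower in Twist cKO and 10 lower in Snail cKO, with medians of -0.02 and -0.29, so that the direction in Snail cKO turned. The islet genes were then lower for 6 and 8.

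The genes with the levels most like each factor's were found among 11204 named genes by Pearson r over the 9 tumours. For Pdx1 they were Etl4 (0.98), Lgals4 (0.98), a lectin of gut epithelium, and Mall (0.98). For Hnf4a they were Cmtm8 (0.98), C2cd4c (0.98) and Gata5 (0.97), and for Foxa2 they were Gata5 (0.97), Atp9a (0.97) and Psg23 (0.97). Gata5, a gut relative of Gata4 and Gata6, was thus near both: it was at 4.38, 7.74 and 8.46 in KPC, 6.87, 4.70 and 7.84 in Twist cKO, and 5.58, 9.53 and 7.80 in Snail cKO. It was not above background in the 2 tumours where Pdx1 and Foxa2 were not. Without them its r was 0.94 with Foxa2 and 0.94 with Hnf4a. For Pdx1, r without them was 0.69 with Etl4, 0.90 with Lgals4 and 0.97 with Mall.

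Sox9 was most like Mex3a (0.98), an RNA-binding protein gene, Kctd5 (0.98) and Vangl2 (0.97), a planar cell polarity gene; leaving out the 2 samples farthest from the Sox9 median gave 0.76, 0.94 and 0.88. Gata6 was most like Cilk1 (0.96), Bzw1 (0.95) and Rac3 (0.94). The dim factors were nearest to Pbp2 (0.93), Bace2 (0.93) and Iqgap2 (0.92) for Gata4, and Nrxn2 (0.96), Sorl1 (0.90) and Gpr160 (0.89) for Nr5a2. High values at the top of so many genes are found by the search itself and describe these 9 tumours.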

How the data were processed

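The authors deposited 1-colour Illumina array values for 9 tumours: per the file headers, each of 45281 probes has its mean bead intensity and a detection p-value. The values are linear and neither background-subtracted nor scaled between arrays. The submitters' processing notes name GenomeStudio 5.0. The authors' table of processed intensity values was, column by column, a straight line of the bead intensity (slopes 0.795 to 1.16, intercepts -101 to -68.3), hence linear, not centred by gene and of the same direction. Its column medians were 14.6, 13.7 and 17.3 in KPC, 21.7, 22.4 and 11.2 in Twist cKO, and 21.7, 23.3 and 9.3 in Snail cKO; the method of subtraction and scaling is not stated in the labels or headers used here.

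Intensities were background-corrected and quantile-normalised by neqc in limma 3.58.1 (R 4.3.3, offset 16) with the background read from the detection p-values. Probes with detection p under 0.05 on at least 3 arrays were kept (20940), and the kept probe with the highest mean stood for a gene. Of all probes 34885 had 1 gene symbol, 18 several and 10378 none; 34807 matched RefSeq's gene list by Entrez ID and no symbol differed. A group-means model over the 9 arrays was fitted with lmFit and eBayes (6 residual degrees of freedom), with Benjamini-Hochberg adjustment over 11537 genes. The labels do not say more of the replicates than that each tumour has its own mouse number. A simulation from these arrays with known changes was used to test the scripts.

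The factors and all gene lists were chosen with earlier results of these data known. Named genes were the factors, the transcription factor and partner lists, up to 3 genes of every other list with the smallest unadjusted p over the 3 pairwise comparisons, and the 3 genes most like each factor. Alternatives were other probe filters, normalisations, weights, an array-set block, and leaving out each tumour. A list of target genes is not reported here.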

Additional observations from a re-analysis of the deposited data

How the results depend on the processing

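No paired analysis was possible because the labels give every tumour its own mouse number and the groups share none. The count of genes past an adjusted p of 0.05 was 0 in all 4 comparisons under every alternative run but one: without Twist cKO replicate 1 it was 3 for Twist cKO against KPC (Fcer1g, Gdpd3 and Thumpd1) and 1 for Snail cKO against Twist cKO (Thumpd1), so leaving out single tumours gave 0 to 3 and 0 to 1. These genes are named here after their values were seen, and none is a pancreas factor. None of the 573 alternative values for the 28 differences of the 7 factors passed adjustment (smallest adjusted p 0.605), 516 kept their direction and 57 turned. The cause was not tested. Between tumours of the first array set, where the lone Twist cKO and Snail cKO tumours are assumed to vary like the KPC tumours, differences that turned in Twist cKO against KPC were 1.10 for Pdx1, 0.077 for Sox9, 0.46 for Foxa2 and 1.69 for Hnf4a. There, Sox9 was 0.33 in Snail cKO against KPC and 0.20 for both knockouts, and Gata6 and Nr5a2 were -0.19 and 0.42 in Snail cKO against Twist cKO. With the array set as a block, Pdx1, Foxa2 and Hnf4a were 0.63, 0.079 and 1.16 in Twist cKO against KPC, and Sox9 was 1.42 in Snail cKO against KPC and 0.20 for both knockouts. Without KPC replicate 1 and Twist cKO replicate 2, Foxa2 and Hnf4a were -0.29 and -0.62 in Snail cKO against KPC, Gata6 and Hnf4a -0.36 and -0.21 in Snail cKO against Twist cKO, and Pdx1, Foxa2 and Hnf4a -0.10, -0.37 and -0.51 for both knockouts. With array weights, Hnf4a was -0.083 in Snail cKO against KPC and -0.19 for both knockouts, and Gata6 -0.26 in Snail cKO against Twist cKO. On the authors' processed values, Pdx1 was 0.035 in Twist cKO, Gata6 0.061 in Snail cKO and 0.016 for both knockouts. With the epithelial median as a covariate, an alternative chosen after seeing the data, Hnf4a was -0.029 in Snail cKO against KPC and -0.18 for both, Foxa2 -0.028 for both, and Gata6 -0.11 in Snail cKO against Twist cKO.

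Leaving out each tumour in turn, the differences in Twist cKO against KPC ran from -1.28 to 0.88 for Pdx1, -0.71 to 0.13 for Gata6, -1.15 to 0.57 for Foxa2 and -1.79 to 0.98 for Hnf4a. In Snail cKO against KPC they ran from -0.61 to 0.076 for Gata6, -0.29 to 1.48 for Foxa2, -0.22 to 0.24 for Nr5a2 and -0.62 to 2.08 for Hnf4a. In Snail cKO against Twist cKO they ran from -0.36 to 0.47 for Gata6, -0.032 to 1.72 for Foxa2 and -0.21 to 2.49 for Hnf4a, and for both knockouts from -0.61 to 1.14 for Pdx1, -0.72 to 1.00 for Foxa2 and -1.21 to 1.10 for Hnf4a. Gata4 in Snail cKO against KPC kept its direction in every alternative that gave it a value. It passed the detection filter only through the Snail cKO tumours, where it was high, so this constancy is no independent support for a difference. Keeping only probes above background on 6 arrays removed Gata4 and Nr5a2, whose signals lie near background, so that their sizes are the least well measured.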

Other observations

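Genes of the human classical and basal-like subtypes of pancreatic cancer were read beside the factors. Of 18 classical genes tested, of 25 listed, the mean was higher in 16 and lower in 2 in Snail cKO against KPC tumours, with a median log2 difference of 1.57 against -0.035 over all genes, and higher in 9 and lower in 9 in Twist cKO against KPC, with a median of 0.01. The list's level by tumour was -1.91, 0.64 and -0.41 in KPC and -0.67, 0.65 and 1.55 in Snail cKO, so that the groups overlapped. Leaving out the 2 tumours lowest in epithelial genes, the mean was higher in 11 and lower in 7 in Snail cKO, with a median of 0.65. In Twist cKO it was then higher in 12 and lower in 6, with a median of 0.22. None passed limma with adjustment over all genes. Tff3, a secreted trefoil peptide of mucous cells, was at 4.42, 5.79 and 4.66 in KPC and 4.98, 7.83 and 12.07 in Snail cKO, so that Snail cKO replicate 3 carried most of its difference. Agr2, a chaperone for mucins, was at 5.01, 5.75 and 6.43 in Snail cKO and 5.00, 4.53 and 4.88 in Twist cKO. Of 13 basal-like genes, 10 had a lower mean in Twist cKO against KPC (median -0.38) and 7 a higher mean in Snail cKO against KPC (median 0.14); without the same 2 tumours these were 7 lower (median -0.04) and 5 higher (median -0.53). Of 10 stomach and intestine markers 9 had a higher mean in Snail cKO against KPC, with a median of 0.98, and 6 of 10, with a median of 0.13, without the same 2 tumours. None passed adjustment.

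Foxa1, the closest relative of Foxa2, was lowest in the same tumours as Foxa2 but highest in others. It was at 4.76, 5.70 and 5.83 in KPC, 8.45, 4.69 and 9.08 in Twist cKO, and 4.61, 7.24 and 6.34 in Snail cKO. Both were lowest in KPC replicate 1, Twist cKO replicate 2 and Snail cKO replicate 1. Foxa1 was highest in Twist cKO replicates 1 and 3, and Foxa2 in Snail cKO replicate 2. Rfx6, a factor required for islet development in the mouse, was above background in KPC replicate 2 (8.23), Twist cKO replicate 3 (7.43) and all 3 Snail cKO tumours (7.11, 8.39 and 9.07). Its difference between Snail cKO and Twist cKO was 2.63 (SE 1.14, limma adjusted p = 0.986). Of the 6 endocrine factors tested, Rfx6 included, 3 had a higher mean in Twist cKO against KPC (median -0.08) and 4 in Snail cKO against KPC (median 0.38), or 4 and 4 without the same 2 tumours (medians 0.34 and 0.53), and none passed adjustment.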
